A study of Homo sapiens with 54 samples.

Results

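The comparison set 2 human fibroblast lines, AG09309 and AG09319 (Ag09309 and Ag09319 in the labels), against 6 lines of blood origin at 36 h of calcitriol, the hormonal form of vitamin D. It used 16 of the 54 arrays of the series, 4 of fibroblasts and 12 of blood lines, chosen by cell line and time. The blood lines were GM07019, GM07348, GM10854 and GM12878, all lymphoblastoid (B cells immortalized by Epstein-Barr virus), the promyelocytic leukaemia line HL60 and the chronic myeloid leukaemia line K562. Each line had 2 arrays, and the line mean was the unit of the tests, so that 2 values stood against 6. The study measured 9 lines on Affymetrix Gene 1.0 ST arrays before calcitriol (0 h, no agent) and after 8 h and 36 h with it. All cells compared here had received calcitriol, at a dose the labels do not state. HepG2, a hepatoma line, is an epithelial line outside the comparison and is given beside some values. For GM10854 titles and cell line field disagree, and the latter set its group. The sample titles have 2 styles: those of AG09319, GM12878 and HepG2 carry a date, and those of the other 6 lines do not. AG09309 and AG09319 thus differ in title style, and what goes with it cannot be told apart from differences between these lines.

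Fibroblasts are the cells of connective tissue that secrete and remodel the extracellular matrix. They build collagen fibrils, elastic fibres and fibronectin, grip this matrix through integrins at focal adhesions, and tense it with actin stress fibres. Leukocytes and the lines grown from them live in suspension and use another set of actin regulators, integrins and signalling proteins.

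Levels are log2 RMA values, so a difference of 1 is a doubling on the scale of the arrays, and the medians of the 16 arrays lay between 4.98 and 5.31. All fibroblast arrays had lower medians (4.98 to 5.08) than the blood arrays (5.10 to 5.31). The arrays of a line at 36 h correlated with 0.969 (K562) to 0.989. No detection calls were used, and a level well below these medians cannot be told from background, so differences that start from such a level are not exact folds. Line means of the 2 fibroblast lines correlated with 0.977 over all probe sets, fibroblast and blood lines with 0.870 to 0.905, and blood lines among themselves with 0.931 to 0.990. The sample titles number the arrays of a line BR1 and BR2 without spelling this out, and no protocol text used here says that they came from separate cultures. The p-values measure the spread between these lines only.

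The labelled cell types were checked against their markers. All 13 fibroblast markers were higher in the fibroblast lines (12.3% of all genes called higher), and all 6 pan-leukocyte markers were lower (12.7% called lower). COL1A1, a chain of type I collagen, had levels of 11.91 and 12.15 in AG09309 and 11.88 and 11.45 in AG09319, against blood arrays from 5.87 to 6.54 with a median of 6.06. The difference was 5.73 ± 0.16 (adjusted p = 4.17e-07), and the groups did not overlap. COL3A1, the chain of type III collagen, stood at 9.95 and 10.10 in AG09309 and 10.27 and 9.91 in AG09319 against blood arrays from 4.85 to 5.5 with a median of 5.31, a difference of 4.78 ± 0.11 (adjusted p = 1.26e-07). PDGFRB, a platelet-derived growth factor receptor of mesenchymal cells, read 8.19 and 8.27 in AG09309 and 7.99 and 8.13 in AG09319, and blood arrays ran from 4.14 to 4.97 with a median of 4.82, a difference of 3.43 ± 0.16 (adjusted p = 3.5e-06). Both genes also separated the groups in every array. LCP1, the leukocyte actin-bundling protein L-plastin, was low in fibroblasts (3.93 and 3.41 in AG09309 and 4.09 and 4.34 in AG09319) and high in blood arrays, from 9.74 to 11.58 with a median of 11.18. Its difference of -7.13 ± 0.35 (adjusted p = 4.8e-06) was the largest of any gene lower in fibroblasts. Of 9 measured B cell markers 1 was lower, not under all scalings described below, while 8 of the 9 were lower against the lymphoblastoid lines alone (16% of all probe sets). MS4A1 (CD20) averaged 3.16 in the fibroblast lines, 9.99 in the lymphoblastoid lines and 3.60 in HL60 and K562. None of the 8 hepatocyte, 7 myeloid or 4 adipocyte markers was called by limma, with 0, 0 and 1 of them at an unadjusted p under 0.05. Of all 19436 probe sets 7735 were at that level in either direction. Of 7 smooth muscle and pericyte markers 4 were higher, each under all 3 scalings. Of 6 endothelial markers 3 were lower, 1 of them under all 3 scalings. Among 5 erythroid and 7 T and NK cell markers 1 each was lower, and none of 4 melanocyte markers was called.

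A total of 4856 of 19436 probe sets differed between fibroblast and blood lines (25% called, limma, Benjamini-Hochberg adjusted p under 0.05), 2338 higher (12%) and 2518 lower (13%) in fibroblasts. With a difference of at least 1 as well, 1531 were higher (7.88%) and 755 lower (3.88%). The split between directions rests on the scaling of the arrays: it was 2801 higher and 1396 lower after quantile normalization, and 3177 higher and 1105 lower after centring on array medians. The median difference of all probe sets was -0.13 as deposited, 0.02 after quantile normalization and 0.06 after centring. Counted as 1 probe set per gene, 2268 of 18394 genes were higher (12.3% called) and 2328 lower (12.7%). Under all 3 scalings 2255 genes stayed higher (12.3%) and 981 lower (5.33%), and list counts below are read against these shares. Line means of the values as deposited did not overlap for 2976 genes above the blood lines (16.2%) and 5027 below (27.3%). Without AG09309 the count of probe sets was 2036, without AG09319 2550, and without replicate 2 of every line 3153.

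By a difference of at least 1, 1488 genes were higher (8.09%) and 697 lower (3.79%). Of the 1488, 1324 were also called against the lymphoblastoid lines (31% of all probe sets called) and against the leukaemia lines (25.5%) taken separately. Of the 697 this held for 592. These contrasts used the same fibroblast and blood line means that had selected the genes. The overlap thus largely follows from the selection, and the shares of all probe sets are no yardstick for it. AG09309 and AG09319 differed by over 1 for 253 of the 1488 raised genes, 477 of which had a fibroblast mean over 8, and for 10 of the 697 lowered genes, of which 19 did. HepG2, a line of neither kind, was nearer to the blood lines for 1124 of the raised genes. For the lowered genes it was nearer to the fibroblasts in 523 cases. Called against HepG2 in the same direction as against the blood lines were 82 of the 697 lowered genes and 838 of the 1488 raised ones. Of all 19436 probe sets 1883 were called higher and 2930 lower in fibroblasts than in HepG2 (24.8% in either direction). The fibroblast means that had selected the genes entered this contrast too, so these shares are no yardstick either.

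THBS1, the matricellular glycoprotein thrombospondin 1, had the largest difference in favour of fibroblasts. Its levels were 12.53 and 12.55 in AG09309 and 12.36 and 12.05 in AG09319, against blood arrays from 3.92 to 5.59 with a median of 4.62, a difference of 7.72 ± 0.32 (adjusted p = 1.86e-06). LOX, the enzyme that cross-links collagen and elastin, reached 12.32 and 12.25 in AG09309 and 10.88 and 10.66 in AG09319 and in blood arrays ran from 3.30 to 4.17 with a median of 3.81, a difference of 7.70 ± 0.36 (adjusted p = 3.5e-06). Every fibroblast array lay far above every blood array for both genes, with AG09309 above AG09319 for LOX. POSTN (periostin, a matrix adapter protein) differed by 7.09 ± 0.16 (adjusted p = 1.26e-07) and FSTL1, a secreted glycoprotein of the follistatin family, by 7.04 ± 0.19 (adjusted p = 3.24e-07). SERPINE2, a secreted protease inhibitor, stood at 11.45 and 11.28 in AG09309 and 10.19 and 10.28 in AG09319, against blood arrays from 3.53 to 4.28 with a median of 3.94, a difference of 6.89 ± 0.28 (adjusted p = 1.57e-06). GREM1, a secreted antagonist of bone morphogenetic proteins, was even between the lines (11.47 and 11.52 in AG09309 and 11.41 and 11.002 in AG09319) and low in blood arrays, from 4.48 to 5.12 with a median of 4.75, a difference of 6.58 ± 0.12 (adjusted p = 6.17e-08). DKK1, an inhibitor of WNT signalling, was higher in AG09309 (10.50) than in AG09319 (8.43), and differed from the blood lines by 6.68 ± 0.43 (adjusted p = 2.14e-05). The other leading genes were TMEM47 (6.69), the heparan sulphate sulfatase SULF1 (6.55), the actin-regulating GTPase RND3 (6.46), FN1, COL1A2, DCN, LUM and IL7R.

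**Figure D1:**
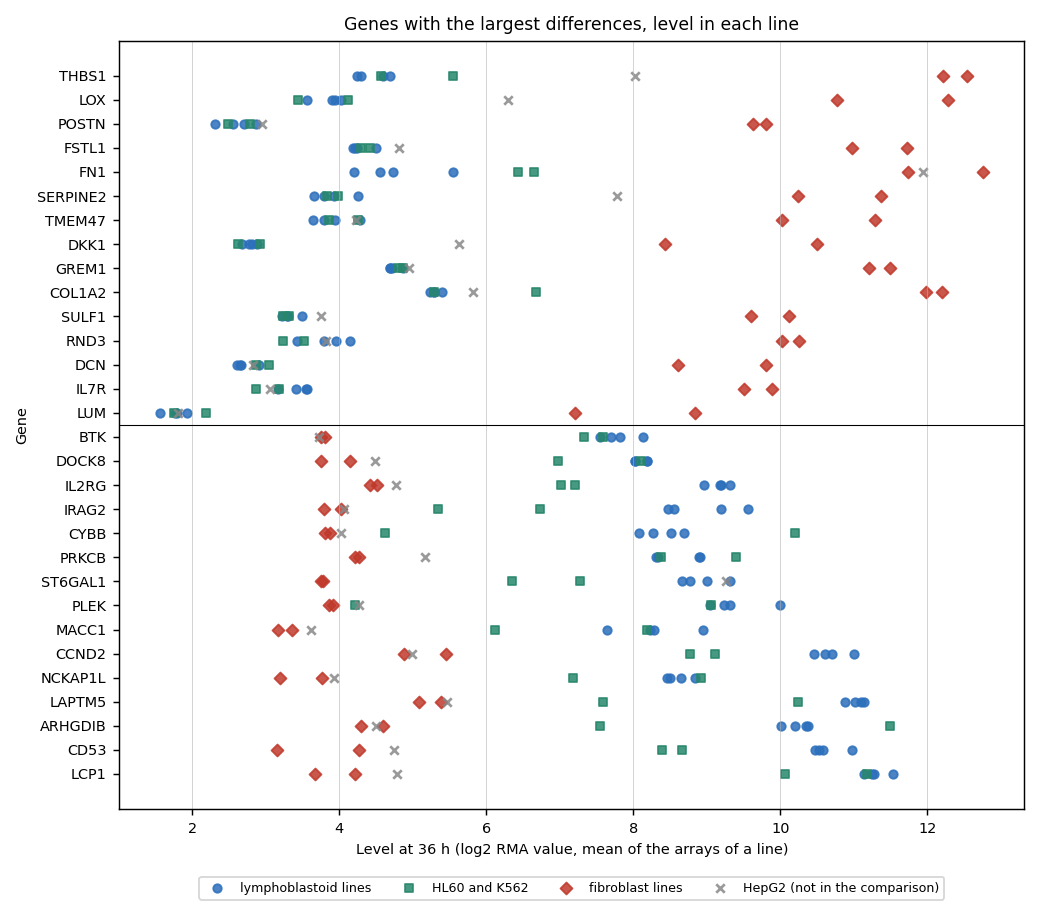
Level at 36 h (log2 RMA value, mean of the arrays of a line) of the 15 genes with the largest difference in each direction; diamonds are fibroblast lines, circles lymphoblastoid lines, squares HL60 and K562, crosses HepG2. For each gene both fibroblast lines lie outside the range of the 6 blood lines; in the upper genes HepG2 lies near the blood lines except for FN1, THBS1, SERPINE2, LOX and DKK1, and in the lower genes it lies near the fibroblasts except for ST6GAL1.

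IL7R, the alpha chain of the interleukin-7 receptor and best known from lymphocytes, was among these 15. Its levels were 9.91 and 9.87 in AG09309 and 9.55 and 9.47 in AG09319, and blood arrays ran from 2.81 to 3.77 with a median of 3.33, a difference of 6.41 ± 0.21 (adjusted p = 6.57e-07). All 4 fibroblast arrays were high, and lymphoblastoid and leukaemia lines alike were low. IL2RG, the common gamma chain that pairs with it in the receptor, went the other way: 4.54 and 4.47 in AG09309 and 4.40 and 4.43 in AG09319, against blood arrays from 6.60 to 9.51 with a median of 9.06, a difference of -4.02 ± 0.68 (adjusted p = 0.00449). KIT, the receptor for stem cell factor, was also higher in fibroblasts by 1.81 ± 0.46 (adjusted p = 0.0241), at low levels of 5.40 and 5.23, and its ligand KITLG by 5.22 ± 0.21 (adjusted p = 1.6e-06). The blood lines split for KIT, with 4.53 in HL60 and 4.28 in K562 against a lymphoblastoid mean of 3.05.

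Of 34 measured collagen chains 15 were higher and none lower (median difference 0.50, against -0.13 over all genes). The chains of type I, III, V and VI, which form the fibrils and beaded filaments of connective tissue, were all among them where measured on a listed chain, except COL5A3. COL1A2, the partner of COL1A1, differed by 6.56 ± 0.37 (adjusted p = 9.88e-06), and K562 (6.67) stood above the other blood lines. COL12A1, which decorates collagen fibrils, differed by 6.18 ± 0.20 (adjusted p = 6.57e-07) and COL6A3 by 5.70 ± 0.28 (adjusted p = 4.16e-06). COL5A1 and COL5A2 were higher by 1.88 and 4.39, and COL6A1 and COL6A2 by 3.65 and 2.61. The basement membrane chains COL4A1 and COL4A2 were higher by 1.80 and 1.79, at 6.43 and 7.25. The cartilage chain COL9A1 gave -0.22 ± 0.13 (adjusted p = 0.231), and COL19A1 gave -0.98 ± 0.49 (adjusted p = 0.172).

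Of 28 genes for collagen folding, processing and cross-linking 23 were higher and none lower (median 1.65). Lysyl hydroxylase 2, PLOD2, differed by 5.10 ± 0.77 (adjusted p = 0.00249), and HepG2 read 9.44 beside 8.99 in fibroblasts. The procollagen C-proteinase enhancer PCOLCE differed by 4.58 ± 0.36 (adjusted p = 7.67e-05), the collagen prolyl isomerase FKBP10 by 4.02 ± 0.21 (adjusted p = 6.49e-06) and the collagen chaperone SERPINH1 (HSP47) by 3.12 ± 0.48 (adjusted p = 0.00288). LOXL2, a relative of LOX, differed by 4.24 ± 0.30 (adjusted p = 3.49e-05). The catalytic subunits of collagen prolyl hydroxylase, P4HA1 and P4HA2, were higher by 1.63 and 2.81. Their shared partner P4HB, which also serves as a general disulphide isomerase, gave 0.70 ± 0.39 (adjusted p = 0.215), and the general cyclophilin PPIB gave 0.38 ± 0.20 (adjusted p = 0.194); both were high in every line, at 9.95 and 9.60 in blood lines.

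Of 42 matrix glycoproteins, elastic fibre proteins and proteoglycans 38 were higher and none lower (median 3.80), the largest share among the gene lists (marker lists aside). FN1 (fibronectin) had levels of 12.64 and 12.88 in AG09309 and 11.86 and 11.62 in AG09319, and blood arrays ran from 4.03 to 6.88 with a median of 5.14. The groups did not overlap, the difference was 6.90 ± 0.69 (adjusted p = 0.000285), and HepG2, whose tissue of origin secretes plasma fibronectin, reached 11.94. The collagen-binding proteoglycans DCN (decorin) and LUM (lumican) differed by 6.42 ± 0.28 (adjusted p = 2.53e-06) and 6.19 ± 0.36 (adjusted p = 1.24e-05), from levels of 2.79 and 1.83 in blood lines. LUM was higher in AG09309 (8.84) than in AG09319 (7.21), and DCN the reverse (8.61 and 9.81). FBN1 (fibrillin 1, the core of microfibrils) differed by 4.68 ± 0.56 (adjusted p = 0.000754) and THBS2 by 5.66 ± 0.18 (adjusted p = 6.25e-07). SPARC, a collagen-binding matricellular protein, differed by 3.94 ± 0.94 (adjusted p = 0.0192) from a blood mean of 7.03. ELN (elastin) passed with a small difference, 0.48 ± 0.15 (adjusted p = 0.0487).

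Of 27 matrix proteases and inhibitors 20 were higher and none lower (median 2.35). The collagenase MMP1 differed by 5.71 ± 0.15 (adjusted p = 2.85e-07), the gelatinase MMP2 by 5.26 ± 0.17 (adjusted p = 6.57e-07) and its membrane-bound activator MMP14 by 4.12 ± 0.19 (adjusted p = 3.4e-06). MMP1 levels were 9.49 and 9.37 in AG09309 and 8.95 and 9.22 in AG09319, against blood arrays from 3.31 to 4.0 with a median of 3.49, with no overlap. The cysteine protease CTSK (cathepsin K), which cleaves collagen, differed by 5.02 ± 0.17 (adjusted p = 7.44e-07). The inhibitors TIMP1, TIMP2 and TIMP3 were higher as well, by 3.13, 5.06 and 4.28, TIMP1 from a blood mean of 8.35. The collagenase MMP13 gave 0.28 ± 0.14 (adjusted p = 0.189) at levels near 3.26. Of 22 genes of hyaluronan and heparan sulphate metabolism 12 were higher and 1 (GPC2) lower, the latter not under all 3 scalings. CEMIP, a hyaluronan-degrading protein, differed by 5.63 ± 0.10 (adjusted p = 6.17e-08), and the proteoglycan CSPG4 (NG2) by 2.11 ± 0.21 (adjusted p = 0.000311). GPC3 (glypican 3) gave 2.47 ± 0.89 (adjusted p = 0.0765), at 4.16 in AG09309 and 8.58 in AG09319. The hyaluronan receptor CD44 gave 2.19 ± 1.01 (adjusted p = 0.143), with 10.43 in fibroblasts, 9.17 in lymphoblastoid and 6.38 in leukaemia lines.

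**Figure D2:**
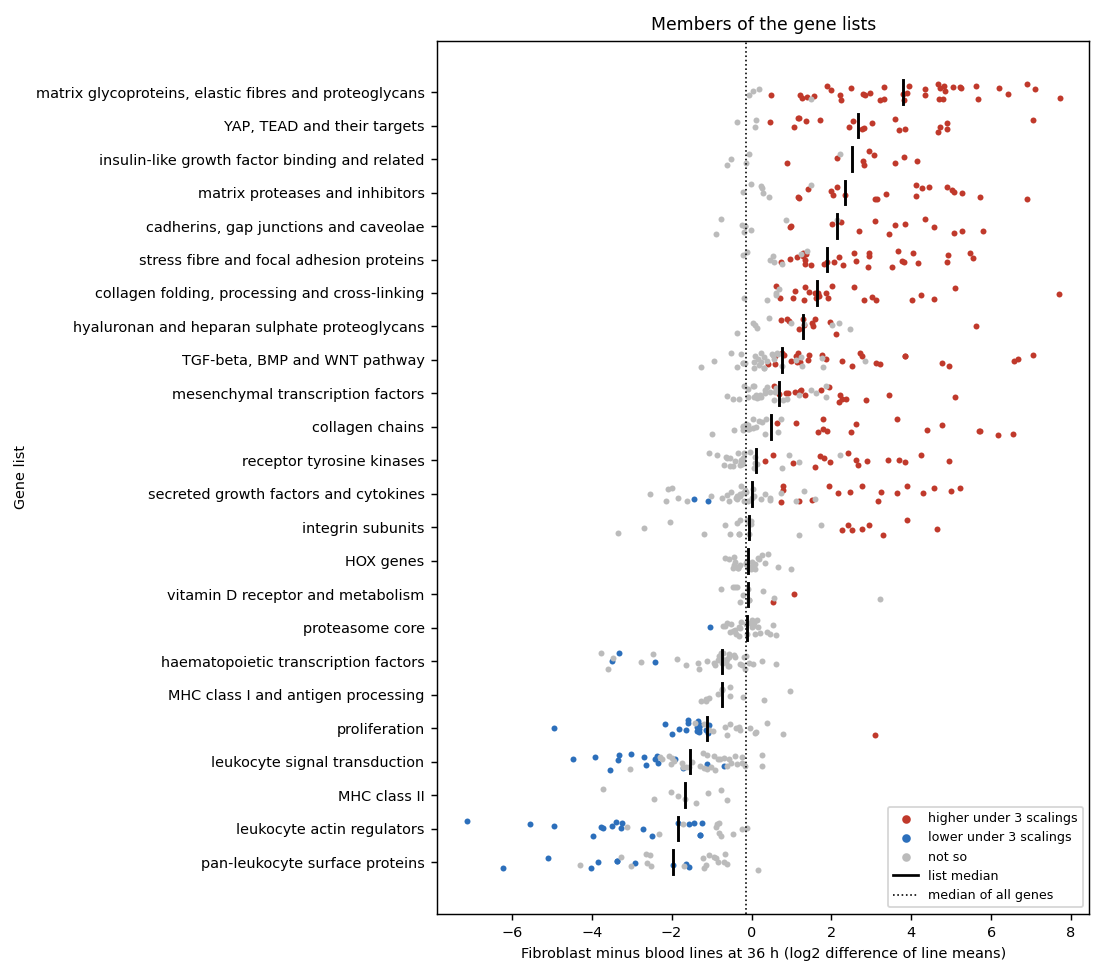
Fibroblast minus blood lines at 36 h (log2 difference of line means) for each member of 24 gene lists; red and blue points were called higher or lower under all 3 scalings, grey points were not, black bars are list medians and the dotted line the median of all genes, -0.13. The matrix lists lie to the right with medians up to 3.80, and the leukocyte lists to the left with medians down to -1.97.

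Of 25 integrin subunits 8 were higher and 1 lower, with a median of -0.05. ITGB1, the beta subunit shared by most collagen, laminin and fibronectin receptors, stood at 10.43 and 10.32 in AG09309 and 10.03 and 10.01 in AG09319, against blood arrays from 6.07 to 7.99 with a median of 6.68, with no overlap. It differed by 3.29 ± 0.42 (adjusted p = 0.00104). Of its partners ITGA8 differed by 4.64 ± 0.58 (adjusted p = 0.001), the collagen receptor subunit ITGA2 by 3.90 ± 0.23 (adjusted p = 1.23e-05), ITGAV by 2.95 ± 0.31 (adjusted p = 0.000344), and the laminin receptor subunits ITGA3 and ITGA6 by 2.28 ± 0.27 (adjusted p = 0.000755) and 2.51 ± 0.78 (adjusted p = 0.0474). ITGB5, the other beta subunit called, pairs with ITGAV and differed by 2.42 ± 0.49 (adjusted p = 0.0101). The fibronectin receptor subunit ITGA5 differed by 2.77 ± 0.76 (adjusted p = 0.031), with HL60 and K562 (6.83 and 7.53) above the lymphoblastoid lines (5.01). ITGA8 was higher in AG09319 (9.53) than in AG09309 (6.70), and the collagen receptor subunit ITGA11 the reverse (5.12 and 8.14, not called).

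Among the leukocyte integrins ITGAL, the alpha subunit of LFA-1, was lower by the fit, -2.70 ± 0.77 (adjusted p = 0.0362), but not under all 3 scalings, with K562 (4.60) near the fibroblasts (4.24). ITGB2, the beta subunit of the leukocyte integrins, gave -2.04 ± 0.86 (adjusted p = 0.114) and ITGB7, of the gut-homing integrin, -3.35 ± 1.22 (adjusted p = 0.0791). For these the blood lines differed among themselves: ITGB7 was 9.34 in lymphoblastoid lines and 5.65 in leukaemia lines, and ITGB2 reached 9.40 in HL60 and 5.18 in K562. Against the lymphoblastoid lines alone ITGB7 differed by -4.58 ± 0.18 (adjusted p = 2.12e-06).

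**Figure D3:**
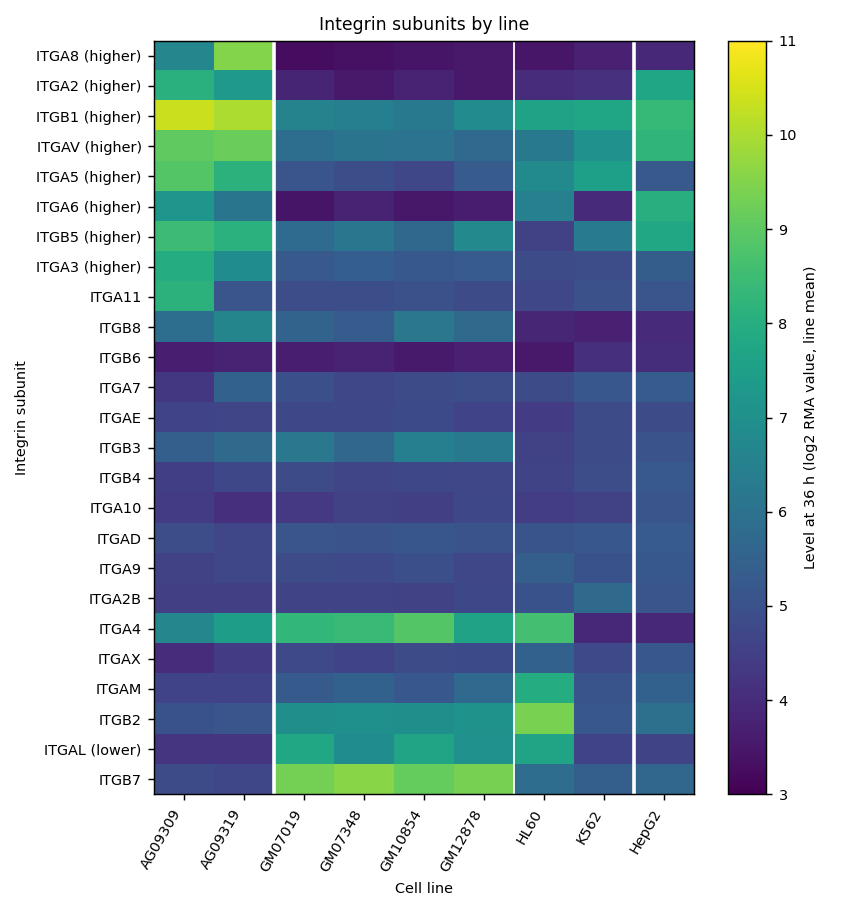
Level at 36 h (log2 RMA value, line mean, colour scale) of 25 integrin subunits in 9 lines, ordered by the difference between fibroblast and blood lines, with called subunits marked; HepG2 is outside the comparison. The 8 subunits called higher are brighter in the fibroblast lines than in the blood lines on average, with HepG2 also bright for ITGA2, ITGA6, ITGAV, ITGB1 and ITGB5, and ITGB7, ITGAL and ITGB2 are brighter in lymphoblastoid lines than in fibroblasts and K562.

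Of 23 genes for cadherins, gap junctions and caveolae 14 were higher and none lower (median 2.15). CAV1 and CAVIN1, which shape caveolae, differed by 5.79 ± 0.25 (adjusted p = 2.29e-06) and 3.84 ± 0.60 (adjusted p = 0.00306). The gap junction protein GJA1 differed by 5.28 ± 0.19 (adjusted p = 9.65e-07), and the mesenchymal cadherin CDH11 by 5.08 ± 0.12 (adjusted p = 1.26e-07) with 9.36 and 9.35 in AG09309 and 9.21 and 9.21 in AG09319, against blood arrays from 3.94 to 4.46 with a median of 4.22. NECTIN3, an adhesion protein of cell contacts, differed by 4.56 ± 0.16 (adjusted p = 8.82e-07). CDH2 (N-cadherin) and CDH6 passed although the fibroblast lines differed: CDH2 was 9.97 in AG09309 and 7.07 in AG09319, and CDH6 5.04 and 9.74. The epithelial cadherin CDH1 gave -0.77 ± 0.39 (adjusted p = 0.177) and was low in fibroblasts (4.09). Among 8 epithelial markers 1 was lower, not under all 3 scalings, and 1, the desmosomal protein DSP, was higher in fibroblasts, with 9.63 and 9.37 in AG09309 and 6.89 and 7.01 in AG09319, against blood arrays from 3.93 to 4.69 with a median of 4.32.

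Of 37 stress fibre and focal adhesion proteins 29 were higher and none lower (median 1.89), and of 29 leukocyte actin regulators 21 were lower and none higher (median -1.83). The focal adhesion protein PARVA (alpha-parvin) read 9.41 and 9.39 in AG09309 and 9.41 and 9.79 in AG09319, against blood arrays from 3.47 to 4.23 with a median of 3.91, a difference of 5.55 ± 0.14 (adjusted p = 1.88e-07). CALD1 (caldesmon) differed by 5.48 ± 0.22 (adjusted p = 1.78e-06), TAGLN (transgelin) by 4.91 ± 0.39 (adjusted p = 7.48e-05), and the tropomyosins TPM1 and TPM2 by 4.05 and 4.17. The smooth muscle actin ACTA2 differed by 2.95 ± 0.51 (adjusted p = 0.00479), while CNN1, a calponin of differentiated smooth muscle, gave 0.57 ± 0.21 (adjusted p = 0.0772). MYH9, non-muscle myosin IIA, gave 0.54 ± 0.45 (adjusted p = 0.395) and was high in both groups (9.22 and 8.68).

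Of the 21 leukocyte actin regulators called lower, 18 were so under all 3 scalings. NCKAP1L (HEM1), of the leukocyte WAVE complex, stood at 3.61 and 3.91 in AG09309 and 3.37 and 3.0 in AG09319, against blood arrays from 6.60 to 8.94 with a median of 8.55, a difference of -4.95 ± 0.43 (adjusted p = 0.000127). The exchange factors DOCK8 and DOCK2 differed by -3.97 ± 0.32 (adjusted p = 8.28e-05) and -3.39 ± 0.63 (adjusted p = 0.00651), and HCLS1 by -3.78 ± 0.61 (adjusted p = 0.00344). CORO1A (coronin 1A) differed by -3.71 ± 0.86 (adjusted p = 0.0171), the GTPase RAC2 by -2.48 ± 0.39 (adjusted p = 0.00324) and WAS, the Wiskott-Aldrich syndrome protein, by -1.29 ± 0.25 (adjusted p = 0.0085). In fibroblasts RAC2 read 6.82, and the other genes of this paragraph between 3.47 and 5.59.

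Several of the lowered genes belong to families with a member not tied to leukocytes, and 22 such pairs, chosen after the differences of the leukocyte genes were seen, were set side by side. In the 21 pairs with both genes measured the leukocyte gene was lower in fibroblasts, which the choice fixed, and 13 of the paralogues were higher, none lower and 8 not called (median 1.47). The counts of paralogues depend on which family member was picked for each pair. Some paralogues were low in blood lines, such as DOCK1 (3.51), FERMT2 (3.93) and PARVA (3.94), and others high, such as RAC1 (9.09) and CORO1C (9.49). Kindlin-2, FERMT2, differed by 4.89 ± 0.34 (adjusted p = 3.72e-05) and kindlin-3, FERMT3, by -3.26 ± 0.15 (adjusted p = 3.47e-06). PARVG, the relative of PARVA, differed by -1.83 ± 0.47 (adjusted p = 0.0244). DOCK1, beside DOCK2, differed by 4.05 ± 0.13 (adjusted p = 6.57e-07), and NCKAP1, beside NCKAP1L, by 3.58 ± 1.07 (adjusted p = 0.0429). Cortactin, CTTN, differed by 3.07 ± 0.74 (adjusted p = 0.0194) and its haematopoietic relative HCLS1 by -3.78. T-plastin, PLS3, the relative of LCP1, gave 3.2 ± 1.19 (adjusted p = 0.0836) with blood lines spread from 2.95 in HL60 to 7.51 in GM12878, and passed against the lymphoblastoid lines alone at 2.13 ± 0.61 (adjusted p = 0.0324). ARHGDIA and the phosphatase PTPN11 gave 0.35 ± 0.18 (adjusted p = 0.19) and 0.39 ± 0.20 (adjusted p = 0.19).

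**Figure D4:**
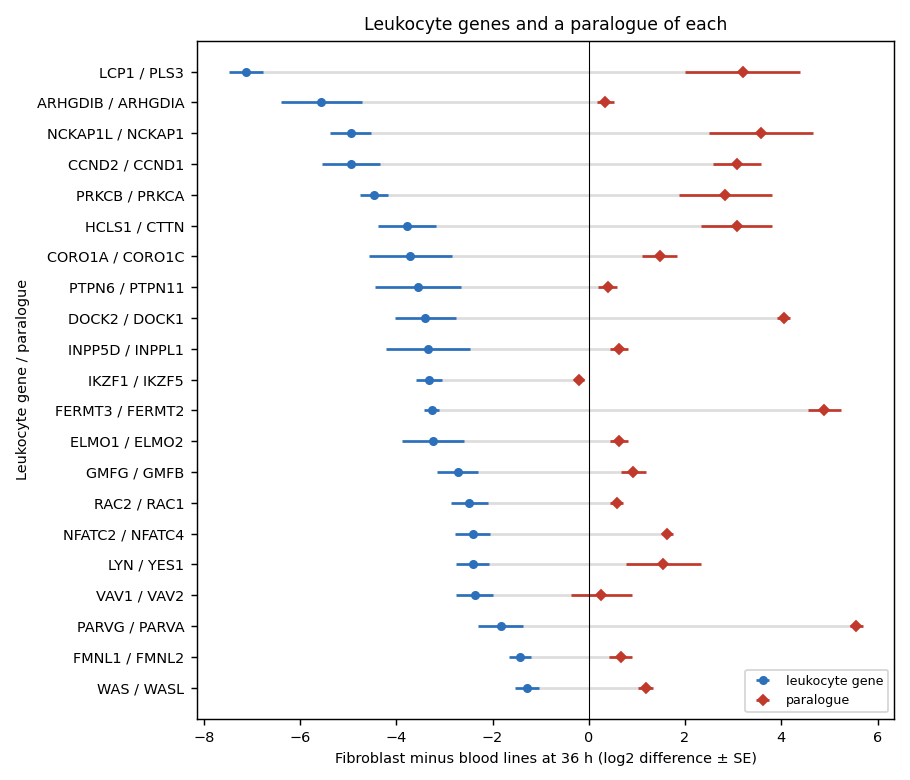
Fibroblast minus blood lines at 36 h (log2 difference with its standard error as bars) for 21 pairs of a leukocyte gene (circles) and a paralogue (diamonds). All leukocyte genes lie below 0, from LCP1 at -7.13, and the paralogues run from -0.20 (IKZF5) to 5.55 (PARVA).

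Of 22 genes of the YAP and TEAD group, transcription co-regulators that respond to spreading and tension, and their targets, 19 were higher and none lower (median 2.66). The co-activators YAP1 and WWTR1 (TAZ) differed by 3.01 ± 0.19 (adjusted p = 1.88e-05) and 2.43 ± 0.32 (adjusted p = 0.0013), and their DNA-binding partner TEAD1 by 3.60 ± 0.43 (adjusted p = 0.000805). The targets CCN1 and CCN2 differed by 4.89 ± 0.16 (adjusted p = 6.57e-07) and 4.90 ± 0.16 (adjusted p = 6.57e-07). CCN2 levels were 10.55 and 10.26 in AG09309 and 9.96 and 10.22 in AG09319, against blood arrays from 5.01 to 5.64 with a median of 5.38, and HepG2 reached 9.28. CRIM1 differed by 4.71 ± 0.57 (adjusted p = 0.000803). ANKRD1, another target, was higher in HepG2 (7.94) than in AG09309 (5.65) or AG09319 (4.10).

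Of 45 mesenchymal transcription factors 17 were higher and none lower (median 0.69). PRRX1, a homeobox factor of connective tissue, read 9.59 and 9.56 in AG09309 and 9.67 and 9.74 in AG09319, against blood arrays from 4.06 to 4.89 with a median of 4.57, and differed by 5.10 ± 0.19 (adjusted p = 1.03e-06). MKX (mohawk, a tendon factor) differed by 3.44 ± 0.21 (adjusted p = 1.54e-05), OSR2 by 2.87 ± 0.41 (adjusted p = 0.00194) and TBX3 by 2.36 ± 0.16 (adjusted p = 3.52e-05). TWIST1 and TWIST2 differed by 1.35 and 1.73. ZEB1 and ZEB2, known from epithelial to mesenchymal transition, gave 1.18 ± 0.44 (adjusted p = 0.0833) and 1.61 ± 1.07 (adjusted p = 0.291), and SNAI1 0.19 ± 0.37 (adjusted p = 0.723). Of 27 measured HOX genes, which mark position along the body axis, none was called by limma in either direction, 1 in each was at an unadjusted p under 0.05, and the array-level fit called 0. Of all 19436 probe sets 7735 were at that unadjusted level in either direction, and the array-level fit called 5898. Their largest differences were 0.98 ± 0.54 (adjusted p = 0.207) for HOXD10, -0.65 ± 0.84 (adjusted p = 0.585) for HOXB9, 0.65 ± 0.38 (adjusted p = 0.23) for HOXC10 and -0.57 ± 0.27 (adjusted p = 0.149) for HOXB3. For HOXD10 and HOXC10 the fibroblast lines differed. AG09309 lay above the mean of the blood lines and AG09319 below it, with the values under the left-out lines further on. The other 12 of the 39 listed had no probe set used here.

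Of 39 haematopoietic transcription factors none was higher and 5 were lower, 3 of them under all 3 scalings: IKZF1 (Ikaros), MYB and NFATC2. IKZF1 levels were 3.68 and 3.86 in AG09309 and 3.27 and 2.90 in AG09319, against blood arrays from 6.23 to 7.24 with a median of 6.77, a difference of -3.32 ± 0.28 (adjusted p = 0.000101). MYB differed by -3.50 ± 0.84 (adjusted p = 0.0196) and NFATC2 by -2.41 ± 0.37 (adjusted p = 0.00266). Several factors known from single lineages did not pass, with blood lines that differed among themselves: IRF4 gave -3.59 ± 1.67 (adjusted p = 0.146) with 10.18 in lymphoblastoid and 5.12 in leukaemia lines, and PAX5 -2.46 ± 1.04 (adjusted p = 0.117) with 8.57 and 5.42. IRF8 gave -3.76 ± 1.30 (adjusted p = 0.0666) and IKZF3 (Aiolos) -3.46 ± 1.34 (adjusted p = 0.0936). Against the lymphoblastoid lines alone 18 of the 39 were lower (16% of all probe sets) and 1 higher, and against the leukaemia lines 11 lower (14.3%) and none higher; whether these counts differ was not tested. RUNX1, of haematopoietic stem cells, gave 0.27 ± 0.55 (adjusted p = 0.735), with fibroblasts (6.91) between lymphoblastoid (6.14) and leukaemia lines (7.65).

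Of 29 pan-leukocyte surface proteins 14 were lower and none higher (median -1.97), 10 under all 3 scalings. CD53, a leukocyte tetraspanin, read 2.93 and 3.37 in AG09309 and 4.28 and 4.26 in AG09319, against blood arrays from 8.02 to 10.99 with a median of 10.51, a difference of -6.23 ± 0.74 (adjusted p = 0.000766). LAPTM5, a lysosomal protein of blood cells, differed by -5.09 ± 0.89 (adjusted p = 0.00492), with K562 (7.58) below the other blood lines. PTPRC (CD45, the leukocyte phosphatase) differed by -3.85 ± 0.24 (adjusted p = 1.69e-05) and SPN (CD43) by -3.37 ± 0.24 (adjusted p = 4.43e-05). CD48 gave -4.29 ± 1.41 (adjusted p = 0.057). SELPLG, the P-selectin ligand, gave 0.16 ± 0.18 (adjusted p = 0.527).

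Of 48 leukocyte signalling genes 19 were lower and none higher (median -1.54), 15 under all 3 scalings. PRKCB, protein kinase C beta, read 4.49 and 3.93 in AG09309 and 4.15 and 4.37 in AG09319, against blood arrays from 8.28 to 9.57 with a median of 8.59, a difference of -4.47 ± 0.29 (adjusted p = 2.43e-05). BTK, Bruton's tyrosine kinase, was evenly high in blood arrays (from 7.30 to 8.33 with a median of 7.64) and low in fibroblasts (3.63 and 3.86 in AG09309 and 3.52 and 4.08 in AG09319), a difference of -3.91 ± 0.20 (adjusted p = 4.95e-06). The phosphatases PTPN6 (SHP-1) and INPP5D (SHIP1) differed by -3.55 ± 0.89 (adjusted p = 0.0227) and -3.34 ± 0.88 (adjusted p = 0.027), the kinases SYK and LYN by -3.0 ± 0.49 (adjusted p = 0.00348) and -2.41 ± 0.34 (adjusted p = 0.00189), and the phosphoinositide 3-kinase catalytic subunits PIK3CG and PIK3CD by -2.64 ± 0.48 (adjusted p = 0.00634) and -1.12 ± 0.20 (adjusted p = 0.00512). Of genes outside the lists CYBB, a subunit of the phagocyte oxidase, differed by -4.22 ± 1.18 (adjusted p = 0.0337), highest in HL60 (10.19) and lowest in K562 (4.62). The sialyltransferase ST6GAL1 differed by -4.47 ± 0.74 (adjusted p = 0.004) and was 9.26 in HepG2. MACC1 differed by -4.64 ± 0.62 (adjusted p = 0.00141) and IRAG2 by -4.06 ± 1.03 (adjusted p = 0.0239). PLEK (pleckstrin) was lower by the fit, -4.59 ± 1.35 (adjusted p = 0.0399), but not under all 3 scalings, with K562 (4.22) near the fibroblasts (3.89).

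Promoters of these genes were searched for 3 motifs on both strands, from 250 bases before to 50 after the RefSeq start (GRCh38.p14): the CArG box of serum response factor, TGACTCA of AP-1, and GAGGAAGT of the ETS factor PU.1, which reads ACTTCCTC on the other strand. GAGGAAGT was in 5 of 16 promoters of the leukocyte signalling genes called lower (BTK, INPP5D, PIK3CG, PTPN6, VAV1) and in 3 of 17 of the leukocyte actin regulators called lower (ARHGAP25, FMNL1, LCP1), against 2.54% of all 27305 promoters. It was in 0 of 26 promoters of the stress fibre genes and 0 of 8 of the matrix proteases and inhibitors called higher. The CArG box was in 2 of those 26 (MYLK, CNN2), 1 of the 17, 1 of the 16 (RASSF5) and 0 of the 8, against 1.29% of all promoters. TGACTCA was in 1 of the 17 (HCLS1), 1 of the 8 (PLAUR) and none of the 26 or the 16, against 4.92%. No promoter in these sets held 2 of the motifs. A match describes letters and says nothing of binding, and genes without a promoter in the table were not searched. The promoters of LCP1 and BTK, which are among the leading lowered genes, are shown with the motif in capitals. Shown too is the window at the start listed for MYLK, a gene of myosin light chain kinase that differed by 3.66 ± 0.13 (adjusted p = 8.82e-07). Which transcript of MYLK begins at this start, and whether it encodes the kinase, was not checked.
LCP1 (chr13:46182128-46182427, minus strand): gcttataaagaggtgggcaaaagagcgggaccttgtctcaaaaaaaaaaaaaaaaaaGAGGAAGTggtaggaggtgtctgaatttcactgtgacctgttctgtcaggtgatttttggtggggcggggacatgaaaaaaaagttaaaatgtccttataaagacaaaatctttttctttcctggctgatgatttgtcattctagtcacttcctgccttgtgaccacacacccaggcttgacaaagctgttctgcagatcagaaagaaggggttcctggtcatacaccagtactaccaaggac
BTK (chrX:101390747-101391046, minus strand): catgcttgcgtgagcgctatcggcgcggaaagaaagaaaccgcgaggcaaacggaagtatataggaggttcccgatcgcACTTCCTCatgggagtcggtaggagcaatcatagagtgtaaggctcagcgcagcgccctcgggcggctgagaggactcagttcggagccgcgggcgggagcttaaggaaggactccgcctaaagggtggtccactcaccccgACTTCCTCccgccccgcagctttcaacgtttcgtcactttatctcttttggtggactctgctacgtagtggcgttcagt
MYLK (chr3:123620499-123620798, minus strand): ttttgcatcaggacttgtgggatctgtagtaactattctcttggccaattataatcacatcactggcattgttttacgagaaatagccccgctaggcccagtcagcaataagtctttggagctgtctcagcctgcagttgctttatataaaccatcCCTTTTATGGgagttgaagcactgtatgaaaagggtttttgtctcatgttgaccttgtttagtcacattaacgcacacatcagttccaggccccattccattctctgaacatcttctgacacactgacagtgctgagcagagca
In LCP1 and BTK the capitals mark GAGGAAGT or ACTTCCTC, which BTK held at 2 places, and in MYLK the CArG box. The gene for PU.1 itself, SPI1, gave -0.81 ± 0.32 (adjusted p = 0.0978), with 7.58 in HL60 and 6.41 in lymphoblastoid lines.

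Of 42 receptor tyrosine kinases 16 were higher and 3 lower, the latter not under all 3 scalings (median 0.11). PDGFRA differed by 4.95 ± 0.19 (adjusted p = 1.31e-06), the collagen receptor DDR2 by 4.24 ± 0.38 (adjusted p = 0.000168), AXL by 3.69 ± 0.16 (adjusted p = 2.46e-06), EGFR by 2.66 ± 0.24 (adjusted p = 0.000169) and FGFR1 by 2.63 ± 0.19 (adjusted p = 3.87e-05). MET, the receptor of hepatocyte growth factor, was 8.23 in AG09309 and 5.77 in AG09319, and differed by 3.83 ± 0.54 (adjusted p = 0.00184). Of 59 genes of the TGF-beta, BMP and WNT pathways 29 were higher and none lower (median 0.78). WNT5A differed by 4.96 ± 0.41 (adjusted p = 9.66e-05), the activin antagonist FST by 4.78 ± 0.23 (adjusted p = 3.75e-06), the ligand TGFB2 by 3.85 ± 0.20 (adjusted p = 5.4e-06) and the receptor TGFBR2 by 3.21 ± 0.72 (adjusted p = 0.0147). The lymphoid WNT effector LEF1 gave -0.93 ± 0.86 (adjusted p = 0.448).

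Of 54 secreted growth factors and cytokines 17 were higher and 4 lower, 2 of these (IL16 and CCL5) under all 3 scalings. FGF5 differed by 5.0 ± 0.47 (adjusted p = 0.000202), PDGFC by 4.29 ± 0.63 (adjusted p = 0.00218), FGF2 by 3.90 ± 0.37 (adjusted p = 0.000204), VEGFC by 3.64 ± 0.36 (adjusted p = 0.000289) and IL6 by 3.17 ± 0.33 (adjusted p = 0.000353). CXCL12, the stromal chemokine that attracts leukocytes, was 7.14 and 7.0 in AG09309 and 10.78 and 10.78 in AG09319, against blood arrays from 4.0 to 4.61 with a median of 4.37, and differed by 4.58 ± 0.76 (adjusted p = 0.00403), much higher in AG09319. Its receptor CXCR4 gave -2.63 ± 1.06 (adjusted p = 0.103). TNF and LTA, cytokines of activated lymphocytes, gave -1.61 ± 0.62 (adjusted p = 0.0911) and -2.15 ± 1.08 (adjusted p = 0.175). Of 14 genes of insulin-like growth factor binding 9 were higher and 1 lower (not under all 3 scalings), among them IGFBP4 with 4.14 ± 0.32 (adjusted p = 6.84e-05), IGFBP7 with 3.06 ± 0.28 (adjusted p = 0.000176) and STC2 (stanniocalcin 2) with 3.82 ± 0.39 (adjusted p = 0.000342). IGFBP5 was 9.64 in AG09319 and 5.17 in AG09309.

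Of 32 proliferation genes 19 were lower, 16 under all 3 scalings, and 1 was higher (median -1.11). MKI67 (Ki-67) read 6.91 and 6.79 in AG09309 and 6.43 and 6.77 in AG09319, against blood arrays from 7.96 to 9.30 with a median of 8.73, a difference of -1.99 ± 0.24 (adjusted p = 0.000722). MCM3, of the replication helicase, differed by -2.16 ± 0.29 (adjusted p = 0.00139) and the mitotic checkpoint kinase BUB1B by -1.81 ± 0.20 (adjusted p = 0.000535). The cyclins went opposite ways: CCND1 was higher, 3.09 ± 0.50 (adjusted p = 0.00339), and CCND2 lower, -4.94 ± 0.61 (adjusted p = 0.000892). CCND2 levels were 5.45 and 5.45 in AG09309 and 5.06 and 4.72 in AG09319, against blood arrays from 8.72 to 11.10 with a median of 10.51. In these bulk cultures fewer cycling cells and less RNA per cell cannot be told apart. Of 28 proteasome genes, a housekeeping list, 1 was called, PSMA3, which was lower with -1.04 ± 0.21 (adjusted p = 0.00912), and the median of -0.12 lay close to that of all genes. PSMA6, PSMB2 and PSMB6 gave -0.72 ± 0.23 (adjusted p = 0.0529), -0.65 ± 0.29 (adjusted p = 0.131) and 0.62 ± 0.34 (adjusted p = 0.209).

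Antigen presentation gave few calls. Of 9 measured MHC class II genes none was called against all blood lines by limma, 3 were lower at an unadjusted p under 0.05 and 6 in the array-level fit, and all 9 were lower against the lymphoblastoid lines alone. Of all 19436 probe sets 7735 were at that unadjusted level in either direction, and 2981 were lower in the array-level fit. Against the lymphoblastoid lines 16% of all probe sets were lower. HLA-DPA1 was 10.70 there, 4.71 in leukaemia lines and 4.98 in fibroblasts. Against all blood lines HLA-DPA1 gave -3.72 ± 1.97 (adjusted p = 0.194), HLA-DQA1 -2.45 ± 1.22 (adjusted p = 0.171), HLA-DMB -2.01 ± 0.88 (adjusted p = 0.126) and HLA-DPB1 -1.83 ± 1.17 (adjusted p = 0.276). Of 12 class I genes 1, the peptide transporter subunit TAP2, was lower with -1.26 ± 0.33 (adjusted p = 0.0269), not under all 3 scalings. ERAP1, NLRC5 and PSMB9 gave -1.14 ± 0.65 (adjusted p = 0.223), -1.14 ± 0.49 (adjusted p = 0.122) and -1.07 ± 1.04 (adjusted p = 0.468), and the class I light chain B2M gave -0.75 ± 0.63 (adjusted p = 0.403). Of 14 genes of vitamin D reception and metabolism 2 were higher, the hydroxylase CYP27A1 by 1.07 ± 0.16 (adjusted p = 0.00215) and the receptor partner RXRB by 0.55 ± 0.11 (adjusted p = 0.0112). CYP24A1, the hydroxylase that degrades calcitriol, was 9.15 and 9.17 in AG09309 and 8.52 and 8.41 in AG09319 and in blood arrays from 4.09 to 10.05 with a median of 4.48. It gave 3.23 ± 1.47 (adjusted p = 0.14), HL60 (10.04) lay above both fibroblast lines, and it passed against the lymphoblastoid lines alone at 4.47 ± 0.89 (adjusted p = 0.00756). The receptor VDR gave 0.56 ± 0.22 (adjusted p = 0.101) and DHCR7, of the sterol pathway, -0.77 ± 0.39 (adjusted p = 0.173).

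The array also carries probe sets for microRNA genes, which read precursor or host transcripts and not the mature microRNA. Of 189 such genes 11 were higher and 37 lower, and 11 and 16 under all 3 scalings. The mature sequences of the leading ones follow (RefSeq, GRCh38.p14, seed bases 2 to 8 in capitals), since a shared seed is what links members of a family.
hsa-miR-221-3p: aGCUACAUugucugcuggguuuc
hsa-miR-154-3p: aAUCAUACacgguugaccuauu
hsa-miR-487a-3p: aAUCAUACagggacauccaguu
hsa-miR-100-5p: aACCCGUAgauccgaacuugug
hsa-miR-29a-3p: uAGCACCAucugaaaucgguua
hsa-miR-199a-5p: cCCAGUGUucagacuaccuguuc
hsa-miR-142-3p: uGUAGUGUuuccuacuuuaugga
hsa-miR-142-5p: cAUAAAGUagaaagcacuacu
MIR154 and MIR487A share the seed of their 3p arms, AUCAUAC, and lie on chromosome 14. MIR221 read 6.53 and 6.80 in AG09309 and 6.21 and 5.82 in AG09319, against blood arrays from 3.57 to 4.66 with a median of 3.94, a difference of 2.34 ± 0.25 (adjusted p = 0.000385). MIR154 differed by 1.92 ± 0.22 (adjusted p = 0.000557), MIR487A by 1.57 ± 0.14 (adjusted p = 0.000167), MIR100 by 1.72 ± 0.24 (adjusted p = 0.00181), MIR29A by 1.40 ± 0.25 (adjusted p = 0.00538) and MIR199A1 by 1.28 ± 0.15 (adjusted p = 0.000718), all from blood levels below the array medians. MIR142, a haematopoietic microRNA gene, was the lowest relative to blood lines, with 2.50 and 2.54 in AG09309 and 2.98 and 2.31 in AG09319, against blood arrays from 3.92 to 6.31 with a median of 6.11, a difference of -3.21 ± 0.40 (adjusted p = 0.000912). The host transcripts MIR31HG and MIR22HG were higher by 2.32 and 1.17, and MIR17HG, host of a cluster linked to proliferation, differed by -1.87 ± 0.48 (adjusted p = 0.0251). MIR31HG was 6.78 in AG09309 and 4.83 in AG09319. MIR600HG, MIR184, MIR147A, MIR211, MIR200C and MIR30E were lower with smaller differences, from -1.41 to -0.88, at fibroblast levels of 2.52 to 5.07.

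The same lines were compared at 0 h and 8 h. At 8 h 2999 probe sets were called (15.4%), 1796 higher (9.24%) and 1203 lower (6.19%), and at 0 h 2532 (13%), 1760 higher (9.06%) and 772 lower (3.97%). Of the 1488 genes higher by at least 1 at 36 h 1279 were called at 0 h and 1250 at 8 h, and of the 697 lower genes 254 and 462. The 0 h arrays of AG09309 carried leukocyte transcripts beside those of fibroblasts. LCP1 was 9.61 and 9.47 there, MS4A1 8.15 and 8.07 and CD53 8.78 and 8.52, while in its 36 h arrays they were 3.93 and 3.41, 3.10 and 2.85, and 2.93 and 3.37. Over the 6 pan-leukocyte markers the summed level, as log2, was 10.97 to 11.10 in its 0 h arrays, 7.40 to 7.43 at 8 h and 7.12 to 7.46 at 36 h, and in AG09319 7.05 to 7.43 at 0 h. At 36 h the summed level was 7.07 to 7.24 in AG09319 and 7.60 to 7.67 in HepG2. COL1A1 in the 0 h arrays of AG09309 was 11.71 and 11.55. The part of these transcripts in the 0 h counts was not tested. Without AG09309 the 0 h count was 1402 probe sets and without AG09319 1069.

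**Figure D5:**
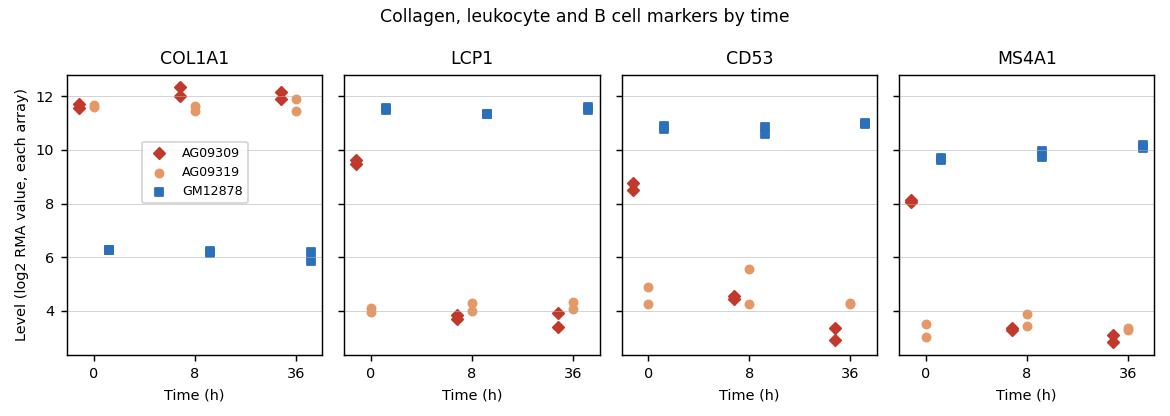
Level (log2 RMA value, each array) of COL1A1, LCP1, CD53 and MS4A1 at 0, 8 and 36 h in AG09309 (diamonds), AG09319 (circles) and the lymphoblastoid line GM12878 (squares). The 0 h arrays of AG09309 hold LCP1, CD53 and MS4A1 at 8.07 or more beside high COL1A1, and its 8 h and 36 h arrays do not.

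The change from 0 h to 36 h differed between fibroblast and blood lines for 553 probe sets (2.85%), 174 with a higher (0.895%) and 379 with a lower (1.95%) change in fibroblasts. The leading genes were CD53 with -3.06 ± 0.78 (adjusted p = 0.0484), CD38, an ectoenzyme of lymphocytes, with -2.27 ± 0.32 (adjusted p = 0.00208), the lymphocyte receptor SLAMF1 with -1.96 ± 0.39 (adjusted p = 0.0129), the checkpoint ligand CD274 (PD-L1) with -1.92 ± 0.36 (adjusted p = 0.00862), and CAMP, the cathelicidin peptide gene, with -1.84 ± 0.41 (adjusted p = 0.0245). In AG09309, whose 0 h arrays hold leukocyte transcripts, CD53 changed by -5.50 and SLAMF1 by -2.68, and in AG09319 by -0.32 and -0.41. CD38 changed by -0.74 in AG09309 and by -0.13 in AG09319, and rose by 0.71 to 2.35 in the blood lines. Its 36 h levels in these fibroblast lines, 4.36 and 4.55, lay below the array medians. CD274 changed by -1.27 in AG09309 and by -0.50 in AG09319, and rose by 0.37 to 2.24 in the blood lines. Without AG09309 the difference was -0.47 ± 0.21 (adjusted p = 0.419) for CD53, -0.82 ± 0.26 (adjusted p = 0.135) for SLAMF1, -1.54 ± 0.44 (adjusted p = 0.0763) for CD274 and -1.59 ± 0.52 (adjusted p = 0.146) for CAMP, so that these 4 calls were lost. CD38 kept its call, with -1.96 ± 0.40 (adjusted p = 0.00891). In that fit AG09319 alone stands for the fibroblasts and is assumed to vary like the blood lines.

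The change from 8 h to 36 h differed by -1.20 ± 0.19 (adjusted p = 0.00505) for CD53, -1.53 ± 0.27 (adjusted p = 0.01) for CAMP and -1.03 ± 0.19 (adjusted p = 0.0135) for CD274. For CD38 the value was -0.78 ± 0.28 (adjusted p = 0.145) and for SLAMF1 -0.56 ± 0.20 (adjusted p = 0.134). The 8 h arrays of AG09319 correlated with 0.931, the lowest of all line and time pairs, and read 4.27 and 5.56 for CD53, with a summed pan-leukocyte level of 7.36 and 7.97. Without the second of these arrays CD53 gave -0.87 ± 0.25 (adjusted p = 0.0811), CAMP -1.35 ± 0.27 (adjusted p = 0.013) and CD274 -1.25 ± 0.20 (adjusted p = 0.00414). Without the first CD274 gave -0.81 ± 0.22 (adjusted p = 0.0818), CD53 -1.52 ± 0.17 (adjusted p = 0.00975) and CAMP -1.71 ± 0.30 (adjusted p = 0.0379). CAMP was thus called with either array left out. The line mean of CAMP went from 5.31 at 0 h to 7.95 at 36 h in GM07348, from 5.82 to 7.09 in GM07019, from 5.92 to 6.86 in GM10854, from 5.74 to 7.35 in GM12878, from 5.76 to 6.77 in HL60 and from 5.44 to 5.62 in K562. In the fibroblast lines it went from 5.34 to 4.53 in AG09309 and from 5.29 to 4.97 in AG09319.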

How the data were processed

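Human cell lines were measured on Affymetrix Gene 1.0 ST arrays from 100 ng of RNA. The authors deposited log2 values made with Expression Console 1.0 and RMA, per the submitters' processing notes; the notes do not say whether all 54 arrays were normalized in 1 run. RMA makes array distributions alike, so a shift of many genes in 1 direction is partly removed. Groups came from the cell line and time fields. Of 33297 probe sets, 19436 with 1 gene symbol were tested; 1754 with several symbols, and those without one, were not named, and 24 were left out. The 2 arrays of a line were averaged, and limma 3.58.1 (R 4.3.3; lmFit and eBayes) compared 2 with 6 line means, two-sided, with Benjamini-Hochberg adjustment and a threshold of 0.05; all adjusted p-values printed are from limma, and values after ± are its standard errors. For gene lists the probe set with the highest mean stood for the gene. Without detection calls, dim probe sets were kept. On simulated data over 19436 probe sets the fit of this comparison recovered 59 of 100 changes of 1 and 86 of 100 changes of 2, with 8 false calls. No other probe sets were changed there and errors were independent, whereas 25% of probe sets were called in the data. These rates need not hold for the data.

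Named were the 15 largest differences in each direction among called genes outside the range of the blood lines, the 4 largest in each list and members whose role is described, markers, up to 8 called microRNA genes in each direction, and the 5 leading genes of the change comparison; 1 of the 15 lowered genes is not reported here. The comparison, its members and the lists were chosen with earlier results of these data known, and the paralogue pairs after the leukocyte genes were seen. Alternatives were other scalings, a filter on low values, array-level fits, title style, and leaving out lines or replicates. The change from 8 h, leaving out either 8 h array of AG09319, and the count of calls under 3 scalings were added after seeing the data. Promoter and microRNA sequences are from RefSeq.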

Additional observations from a re-analysis of the deposited data

Results flagged for a closer look

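In 9 of 53 genes checked for it 1 of the 6 blood lines stood apart from the others at 36 h, the gap to the nearest line being over 0.625 of the whole range (Dixon's criterion, which chance meets in about 1 group in 20). In 8 of them the line was K562. It was above the others for COL1A2 at 6.67 (others 5.23 to 5.39) and THBS1 at 5.54 (4.24 to 4.69). It was below them for LAPTM5 at 7.58 (10.25 to 11.14), PLEK at 4.22 (9.05 to 9.997), LCP1 at 10.07 (11.14 to 11.53), NCKAP1L at 7.18 (8.45 to 8.91), DOCK8 at 6.98 (8.03 to 8.19) and MIR142 at 4.59 (5.86 to 6.23). In SULF1 the line was GM07348 at 3.50 (others 3.22 to 3.31). The cause was not tested.

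The change from 0 h to 36 h differed between fibroblast and blood lines (limma interaction) by -3.06 for CD53, -2.27 for CD38, -1.96 for SLAMF1, -1.92 for CD274 and -1.84 for CAMP, the 5 leading genes. CD53 changed by -5.50 in AG09309, whose 0 h arrays held leukocyte transcripts, and by -0.32 in AG09319. CD38 changed by -0.74 in AG09309 and by -0.13 in AG09319, and rose by 0.71 to 2.35 in the blood lines. Without AG09309 the CD38 difference was still called (-1.96), and those of CD53 (-0.47), SLAMF1 (-0.82), CD274 (-1.54) and CAMP (-1.59) were not. From 8 h to 36 h CD53, CD274 and CAMP were called and CD38 and SLAMF1 were not. The CD53 call was lost without the second 8 h array of AG09319 and the CD274 call without the first.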

How the results depend on the processing

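Counts below are of probe sets called at 36 h unless another comparison is named, against 4856 in all, 2338 higher and 2518 lower, with 1531 higher and 755 lower by at least 1. Leaving out each line in turn gave 2036 (without AG09309) to 6189 (without K562), with 1371 to 3012 higher, 665 to 3177 lower, 1165 to 1725 higher by at least 1 and 423 to 942 lower by at least 1; without AG09309 or AG09319 a single fibroblast line is assumed to vary like the blood lines. The same gave 3535 to 8024 against lymphoblastoid lines, 2996 to 6459 against leukaemia lines, 2480 to 6435 against HepG2, 1069 to 3725 at 0 h, 1629 to 4063 at 8 h, and 347 (without GM10854) to 606 for the change from 0 h to 36 h. Leaving out replicate 1 or 2 of every line, or either K562 array, gave 3153 to 4937, with 1726 to 2526 higher, 1427 to 2411 lower, 1350 to 1672 higher by at least 1 and 689 to 807 lower by at least 1. Quantile normalization left 1396 lower and centring on array medians 1105 lower, 438 of them by at least 1. Among probe sets above the median level 2850 were called, 1313 higher (813 by at least 1) and 1537 lower. Within the first title style, AG09309 against 5 blood lines, 1792 were called, 1287 higher and 505 lower (301 by at least 1); the second style holds 1 line of each kind and no test. With the title style as a term 3712 were called. Over all probe sets of the table, named or not, 8245 were called, 5502 lower (2055 by at least 1). A joint rule of adjusted p and a difference of at least 1 gave 2286, and a test against a difference of 1 (treat) 636, 565 higher and 71 lower.

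With the line as a random block over the 16 arrays 5898 were called, and with a replicate block added 5756. At 8 h, where 2999 were called, leaving out either array of AG09319 gave 2741 and 3231. Deviations of same-numbered arrays correlated from -0.27 to 0.46 over 28 line pairs, with a median of -0.084 and 12 above 0.1. Some lines thus shared deviations and others had opposite ones, so that replicate numbers gave no pairing common to all lines. Of 248 genes named, 194 were called, and 188 of these calls held after quantile normalization, 187 after centring, 155 without AG09309, 163 without AG09319, 193 without K562, 148 within the first title style and 130 under treat; none changed direction under an alternative. Of the genes not called HOXD10 turned to -0.31 without AG09309 (2.27 without AG09319) and HOXC10 to -0.082 (1.39 without AG09319). Without detection calls, no limit of detection can be given, and 2 fibroblast lines limit the precision.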

Other observations

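The families below were picked after their values were seen, and each is given with its counts as a description. Of 14 measured class 3 semaphorins and their receptors, guidance cues that steer axons and vessels, 9 were higher in fibroblasts and 1 (SEMA3G) lower, the latter not under all 3 scalings (median 1.38). SEMA3C differed by 4.79 ± 0.22 (adjusted p = 3.1e-06), its receptor NRP1 (neuropilin 1) by 4.71 ± 0.34 (adjusted p = 4.61e-05), SEMA3A by 4.42 ± 0.49 (adjusted p = 0.000486) and SEMA3D by 3.96 ± 0.21 (adjusted p = 7.54e-06). Of 7 SLIT and ROBO genes 4 were higher, with 4.64 ± 0.45 (adjusted p = 0.000239) for the ligand SLIT2 and 3.96 ± 0.34 (adjusted p = 0.000127) for the receptor ROBO2. Of 16 surface ectoenzymes 8 were higher (median 2.66), among them the phosphodiesterase ENPP1 with 6.16 ± 0.31 (adjusted p = 5.09e-06), the peptidases FAP with 5.43 ± 0.18 (adjusted p = 7.74e-07), MME with 5.07 ± 0.30 (adjusted p = 1.4e-05) and DPP4 with 4.15 ± 0.80 (adjusted p = 0.00812), and NT5E (CD73) with 5.37 ± 0.61 (adjusted p = 0.000578). None was called lower. ENTPD1 (CD39) gave -3.22 ± 1.28 (adjusted p = 0.099) and CD38 -2.84 ± 0.93 (adjusted p = 0.057).

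Of 24 measured complement genes 6 were higher and 2 (C1QC and MASP2) lower, the latter not under all 3 scalings (median 0.06). The proteases C1S and C1R, which start the classical pathway, differed by 5.55 ± 0.29 (adjusted p = 7.03e-06) and 3.53 ± 0.52 (adjusted p = 0.00219), and their inhibitor SERPING1 by 2.25 ± 0.47 (adjusted p = 0.0117). Of 23 measured noncoding genes of the imprinted cluster on chromosome 14, 9 were higher and none lower (median 0.36). MEG3 differed by 2.08 ± 0.15 (adjusted p = 4.73e-05) and SNORD113-4 by 4.04 ± 0.18 (adjusted p = 3.3e-06). Copies of the SNORD113 and SNORD114 genes have similar sequences, so that probe sets may not tell them apart.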
